A study of Mus musculus with 3 samples.

Results

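AP-1 is a family of dimeric transcription factors, and the genes described here are 10 of its subunits and near relatives: Fos, Fosb, Fosl1 and Fosl2 of the Fos family, Jun, Junb and Jund of the Jun family, and Atf3, Batf and Maff of the ATF, BATF and small Maf families. They were taken by symbol from the platform annotation, and all 10 were found, each with 1 probe set, among 19938 genes with a probe set of their own. All of these proteins carry a basic region that contacts DNA and a leucine zipper through which they pair. Jun proteins can pair with themselves or with a Fos protein, whereas Fos proteins need a partner, so the makeup of the pool sets which dimers can form. Several of the genes are immediate early genes, transcribed within minutes when MAP kinases act on factors already bound at their promoters, and in macrophages AP-1 takes part in the response to microbial products, cytokines and stress.

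The cells were peritoneal macrophages of male Angptl4-/- mice of the C57Bl/6J strain, collected 3 days after 4% thioglycollate, a sterile irritant that recruits macrophages, and cultured for 2 days. All 3 groups carry the deletion of Angptl4, whose product is a secreted inhibitor of lipoprotein lipase, and no wild-type cells were analysed here. One group received PBS, one the triglyceride emulsion intralipid (0.5 mM triglyceride), and one intralipid after 1.5 h with 2.5 µg/mL recombinant mouse ANGPTL4, with an exposure of 6 h in each. Each group is 1 array of RNA pooled from 3 samples. No mock pre-incubation of the other cultures is described in the labels. With 1 array per group there is no replicate check, no test was run, and statements of higher and lower hold for these 3 arrays alone. The number of arrays limits the precision of every value below.

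Values are deposited log2 expression levels. An expression floor was set at the median of all probe sets with 1 gene symbol, at log2 values of 5.00, 4.98 and 4.99 on the PBS, intralipid and ANGPTL4 arrays. A gene was counted as higher or lower where 2 arrays differed by at least 2-fold (a log2 difference of 1) and the higher one reached the floor. As a measure of how far unselected genes differed between the same 2 arrays, the robust SD of the log2 differences (from the central 68% of genes) is given for genes of like level. This spread is across genes and not across cultures. It includes genes with identical values on the 2 arrays. These were 3202 of 10018 genes tested for intralipid and PBS, 3054 of 10025 for ANGPTL4 and intralipid, and 3990 of 9960 for ANGPTL4 and PBS. Such ties make the spread narrower than among genes that differed, so a difference of many times this spread is no measure of certainty. Macrophage markers lay past the floor for 13 of 13 measured genes, and B cell (4 measured), T and NK cell (8) and mast cell markers (6) for 0. Fibroblast markers did so for 5 of 8, with a median level of 7.66, 7.52 and 7.56 over the 8 on the arrays in the same order. Neutrophil markers did so for 2 of 8, and eosinophil, dendritic cell and mesothelial markers for 1 gene each. The 1 dendritic cell gene, Clec9a, barely reached the floor and did so with intralipid only, with levels of 3.44, 5.00 and 3.32. Its difference between intralipid and PBS was 2.95-fold as measured and 1.00-fold with values below the floor set to the floor. Among the macrophage markers, Cd14 was the only one that differed by 2-fold or more between the intralipid and PBS arrays, at 9.07, 11.17 and 10.34. The part of these markers in the results below was not tested. In RNA of whole cultures, fewer cells of a type and less RNA per cell cannot be told apart.

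Intralipid was accompanied by higher levels of most AP-1 genes. Of the 10 genes, 8 were higher with intralipid than with PBS, 6 of them at least 2-fold, 1 was lower and 1 was identical, and the median log2 difference was 1.73. The 6 were Fosb, Junb, Fos, Maff, Fosl2 and Jun, with folds from 24.1 down to 2.89. Across the 10018 genes tested in this comparison, 2.52% met that threshold upward and 1.33% downward, and the median difference was 0.00. By any amount, 2353 of them were higher and 4463 lower. On the array with ANGPTL4, 6 of the 10 genes (Fosb, Fosl2, Jun, Junb, Fos and Maff) were at least 2-fold lower than on the intralipid array and 0 higher, while 2.30% of all 10025 genes tested were lower and 2.53% higher. The median log2 difference of the 10 genes in that comparison was -1.29, against 0.00 for all genes. Both comparisons use the intralipid array, so a high value there enters both with opposite sign.

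**Figure D1:**
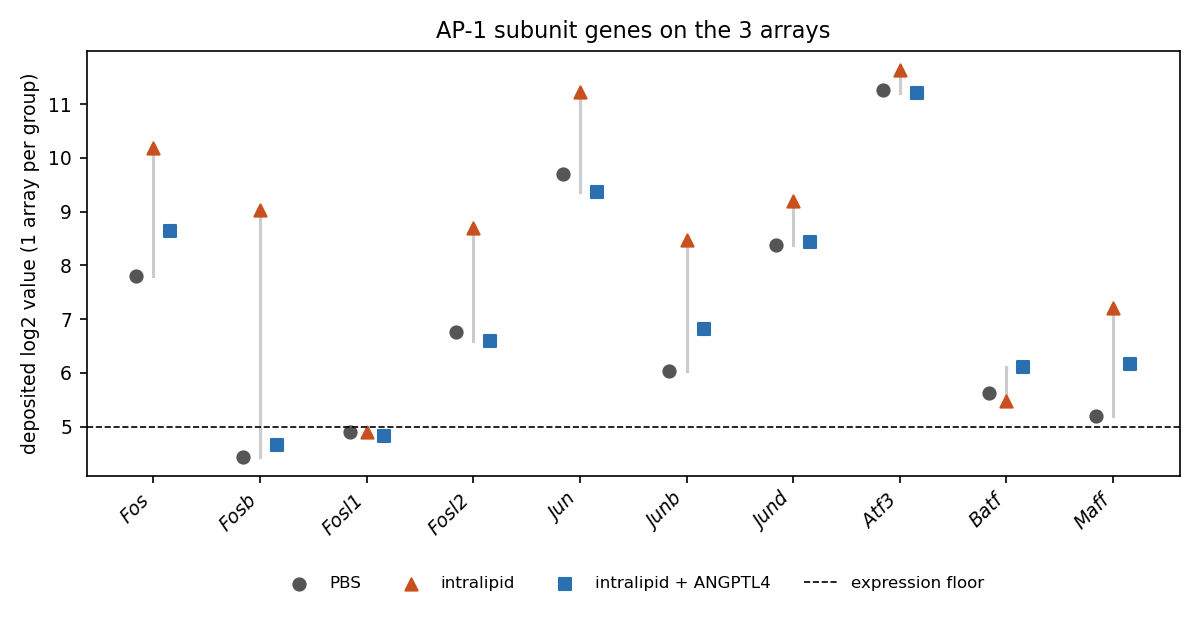
Deposited log2 values (vertical axis) of the 10 AP-1 subunit genes on the PBS (circle), intralipid (triangle) and intralipid plus ANGPTL4 (square) arrays, 1 array per group, with the mean expression floor as a dashed line and a grey line over each gene's range. The triangle is highest for Fos, Fosb, Fosl2, Jun, Junb, Jund, Atf3 and Maff, the square for Batf, and Fosl1 lies just below the floor on every array.

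Upstream sequences from RefSeq (build GRCm38.p6) are shown because most of these genes moved together. The table held 11 start sites for 9 of the 10 genes (3 of them for Maff), and Fosl1 had no entry. The 250 bases before each start were searched on both strands for 5 motifs: the AP-1 site TGACTCA, called TRE; the cyclic AMP response element TGACGTCA, called CRE; TGACATCA, a variant of both; TGACG, the CRE's half-site, which also lies inside the full CRE; and the CArG box, the site of serum response factor. The half-site was found before 7 of the 11 starts, and in 17.8% of all 32851 windows of that length. The 7 include the middle and last starts of Maff, the middle one within the full CRE. The variant was found before 2 (2.93% of all windows), the full CRE before 1 (1.55%), and the TRE (4.46%) and CArG box (1.47%) before none. The motifs were chosen after these sequences were seen, so the shares over all windows are a description and cannot test enrichment. A match describes letters only, and elements farther upstream lie outside these windows. The last 130 bases before the start are printed below for 5 genes that were at least 2-fold higher with intralipid, with matches in capitals.

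Fos encodes c-Fos, the founding member of the family and a classical immediate early gene. Its log2 value was 7.81 in PBS-treated cells, 10.19 after intralipid and 8.64 after intralipid with ANGPTL4. The intralipid array was the highest, and the ANGPTL4 array lay between the others. Fos was thus 5.20-fold higher with intralipid than with PBS, a log2 difference of 2.38 that compares with a robust SD of 0.28 for genes of like level. It ranked 45th from the top of all tested genes. With ANGPTL4 it was 2.91-fold lower than on the intralipid array (-1.54, robust SD 0.33) and still 1.79-fold above PBS (0.84, robust SD 0.12). Fosb, a close relative whose transcript in unstimulated cells is usually scarce, had log2 values of 4.44, 9.03 and 4.65 in the same order. Only the intralipid array exceeded the floor, so the folds rest on values near background at the low end. Fosb was 24.1-fold higher with intralipid than with PBS, the 2nd highest difference of all genes tested as measured. With every value below the floor set to the floor, it was 16.4-fold higher and ranked 5th. With ANGPTL4 it was 20.8-fold lower than on the intralipid array as measured, the lowest difference of all 10025 genes, and 16.5-fold lower against the floor, which ranked 3rd from the bottom. The bases upstream of both genes hold the half-site, at 129 to 125 and 66 to 62 bases before the start of Fos and at 60 to 56 before that of Fosb (chr12:85473760-85473889, plus strand, and chr7:19310046-19310175, minus strand; each sequence reads 5′ to 3′ toward the gene).
Fos: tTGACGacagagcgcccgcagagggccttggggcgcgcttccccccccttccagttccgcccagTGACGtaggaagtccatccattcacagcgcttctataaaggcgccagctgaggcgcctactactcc
Fosb: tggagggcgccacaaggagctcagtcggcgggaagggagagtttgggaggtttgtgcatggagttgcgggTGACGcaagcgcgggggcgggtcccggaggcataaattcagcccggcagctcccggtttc

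Fosl2 encodes Fra-2, a Fos relative without the strong activation domain of c-Fos. It had log2 values of 6.77, 8.69 and 6.59, so that intralipid stood above both other arrays and ANGPTL4 lay slightly below PBS. Fosl2 was 3.79-fold higher with intralipid than with PBS (a log2 difference of 1.92, robust SD 0.22) and 4.28-fold lower on the ANGPTL4 array than on the intralipid array (-2.10, robust SD 0.27). Its 250 upstream bases held no match to any of the 5 motifs. Fosl1, which encodes the related Fra-1, had log2 values of 4.90, 4.90 and 4.83, below the floor on all 3 arrays. Of the 4 Fos family genes, 3 were thus at least 2-fold higher with intralipid. Fosl1 was identical on the PBS and intralipid arrays, but below the floor its values cannot show whether it differed from its relatives.

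Jun encodes c-Jun, the main partner of Fos proteins and a substrate of the JNK kinases. It had log2 values of 9.69, 11.23 and 9.37 on the PBS, intralipid and ANGPTL4 arrays. The level with ANGPTL4 was the lowest of the 3. Jun was 2.89-fold higher with intralipid than with PBS (a log2 difference of 1.53, robust SD 0.26), 3.62-fold lower on the ANGPTL4 array than on the intralipid array (-1.86, robust SD 0.28) and 1.25-fold below PBS with ANGPTL4 (-0.33, robust SD 0.15). Junb encodes a Jun protein that activates many promoters less strongly than c-Jun, and had log2 values of 6.03, 8.47 and 6.81. Here the ANGPTL4 array lay between the other arrays. Junb was 5.40-fold higher with intralipid than with PBS (2.43, robust SD 0.25), which ranked 41st among the genes tested, then 3.15-fold lower on the ANGPTL4 array than on the intralipid array (-1.66) and 1.72-fold above PBS (0.78, robust SD 0.09). Jun had the variant TGACATCA at 45 to 38 bases before its start, and Junb the half-site at 106 to 102 (chr4:95052223-95052352, minus strand, and chr8:84978749-84978878, minus strand).
Jun: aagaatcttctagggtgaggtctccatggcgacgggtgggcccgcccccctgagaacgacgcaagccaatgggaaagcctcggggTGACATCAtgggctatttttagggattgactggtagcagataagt
Junb: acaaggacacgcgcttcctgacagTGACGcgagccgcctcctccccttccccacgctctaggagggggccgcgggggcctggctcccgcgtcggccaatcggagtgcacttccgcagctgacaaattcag

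Jund, the Jun gene that many resting cells express steadily, differed less. Its log2 values were 8.38, 9.19 and 8.43, with intralipid highest and the other arrays 0.05 apart. The difference between intralipid and PBS was 0.82 (1.76-fold, robust SD 0.25), under the 2-fold threshold, and that between the ANGPTL4 and intralipid arrays was -0.76 (1.70-fold lower, robust SD 0.29). All 3 Jun genes were higher with intralipid and lower again with ANGPTL4, 2 of them by at least 2-fold each way. The bases upstream of the annotated start of Jund held no match to the motifs.

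Atf3, Batf and Maff did not share a pattern. Atf3 encodes a stress-induced repressor that limits inflammatory transcription in macrophages, and had log2 values of 11.26, 11.63 and 11.20, far above the floor on every array. It was 1.30-fold higher with intralipid than with PBS (a log2 difference of 0.37, robust SD 0.26) and 1.35-fold lower on the ANGPTL4 array than on the intralipid array (-0.43, robust SD 0.28), which are differences of 1 to 2 times the spread of genes of like level. Batf encodes a short protein that pairs with Jun proteins and lacks an activation domain. It was the only one of the 10 that was lowest with intralipid and highest with ANGPTL4, with log2 values of 5.63, 5.48 and 6.11. These levels were near the floor, at 0.63, 0.50 and 1.12 above it, and no 2 arrays differed by 2-fold. The difference from PBS was -0.15 with intralipid (robust SD 0.07) and 0.48 with intralipid plus ANGPTL4 (1.39-fold higher, robust SD 0.06), and the array with ANGPTL4 was 1.54-fold above the intralipid array (0.63, robust SD 0.15). Batf also holds the half-site, at 98 to 94 bases before its start, as does Atf3 at 7 to 3, so a match occurs before genes of each pattern. In the RefSeq gene table, Fos and Batf lie on chromosome 12 with Jdp2 as the only protein-coding gene between them, and their log2 differences of intralipid from PBS were 2.38 for Fos, 0.43 for Jdp2 and -0.15 for Batf.

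Maff encodes a small Maf protein, which has no activation domain and pairs with itself or with partners such as NRF2. Its log2 values were 5.19, 7.21 and 6.16. The PBS level lay just above the floor and the ANGPTL4 level midway between the other arrays. Maff was 4.04-fold higher with intralipid than with PBS (a log2 difference of 2.02, robust SD 0.16). With ANGPTL4 it was 2.07-fold lower than on the intralipid array (-1.05, robust SD 0.20), just past the threshold, and 1.96-fold above PBS (0.97, robust SD 0.06), just short of it. Of its 3 annotated starts, the middle one has the full CRE at 29 to 22 bases upstream (chr15:79347390-79347519, plus strand). The last of the 3 has the variant TGACATCA at 45 to 38 and the half-site at 122 to 118.
Maff: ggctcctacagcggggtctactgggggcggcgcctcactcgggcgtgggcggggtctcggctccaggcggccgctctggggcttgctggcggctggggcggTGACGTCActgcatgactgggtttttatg

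**Figure D2:**
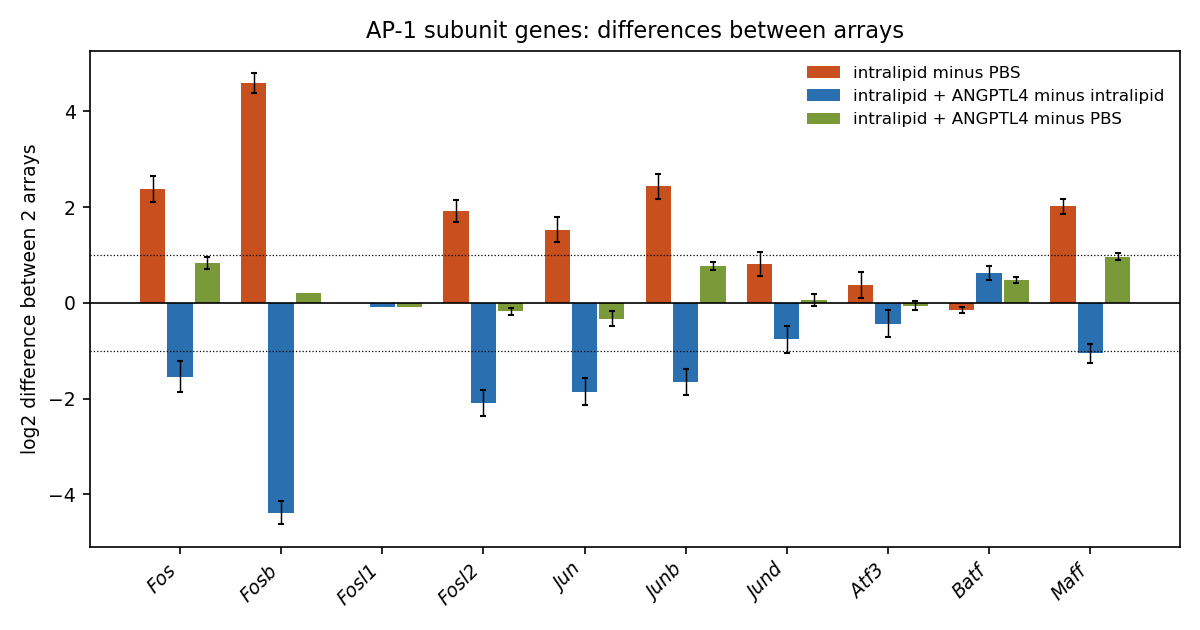
Log2 differences between 2 arrays (vertical axis) for each AP-1 gene: intralipid minus PBS (orange), intralipid plus ANGPTL4 minus intralipid (blue) and intralipid plus ANGPTL4 minus PBS (green). Whiskers show the robust SD across genes of like level for the same 2 arrays, not a replicate error, and are missing where a gene was below the floor on both arrays; dotted lines mark 2-fold. Orange bars pass 2-fold upward for 6 genes, blue bars pass it downward for 6, and no green bar passes it.

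With ANGPTL4, some AP-1 genes lay near their PBS levels and others stayed above them. None of the 10 was at least 2-fold apart between intralipid plus ANGPTL4 and PBS, where 0.843% of the 9960 genes tested were higher and 0.0402% lower. Since few genes of any kind passed 2-fold there, this count does not set the 10 apart. The median log2 difference of the 10 was 0.13. Maff (0.97, robust SD 0.06), Fos (0.84, robust SD 0.12) and Junb (0.78, robust SD 0.09) stayed at least 1.5-fold above PBS, as did 2.37% of all genes tested. They ranked 90th, 125th and 142nd from the top. Batf was next at 0.48 (robust SD 0.06). Fosb, Fosl2, Jund, Atf3 and Fosl1 differed from PBS by between -0.18 and 0.21 (Fosb and Fosl1 lay below the floor on both arrays), and Jun was 0.33 lower on the log2 scale. Sorted by the intralipid difference, the order was Fosb, Junb, Fos, Maff, Fosl2, Jun, Jund, Atf3, Fosl1 and Batf. Junb and Fos (2.43 and 2.38), and Maff and Fosl2 (2.02 and 1.92), were closer to each other than the spread of genes of like level. The step from Fosb to Junb, from 4.59 to 2.43, was several times that spread.

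**Figure D3:**
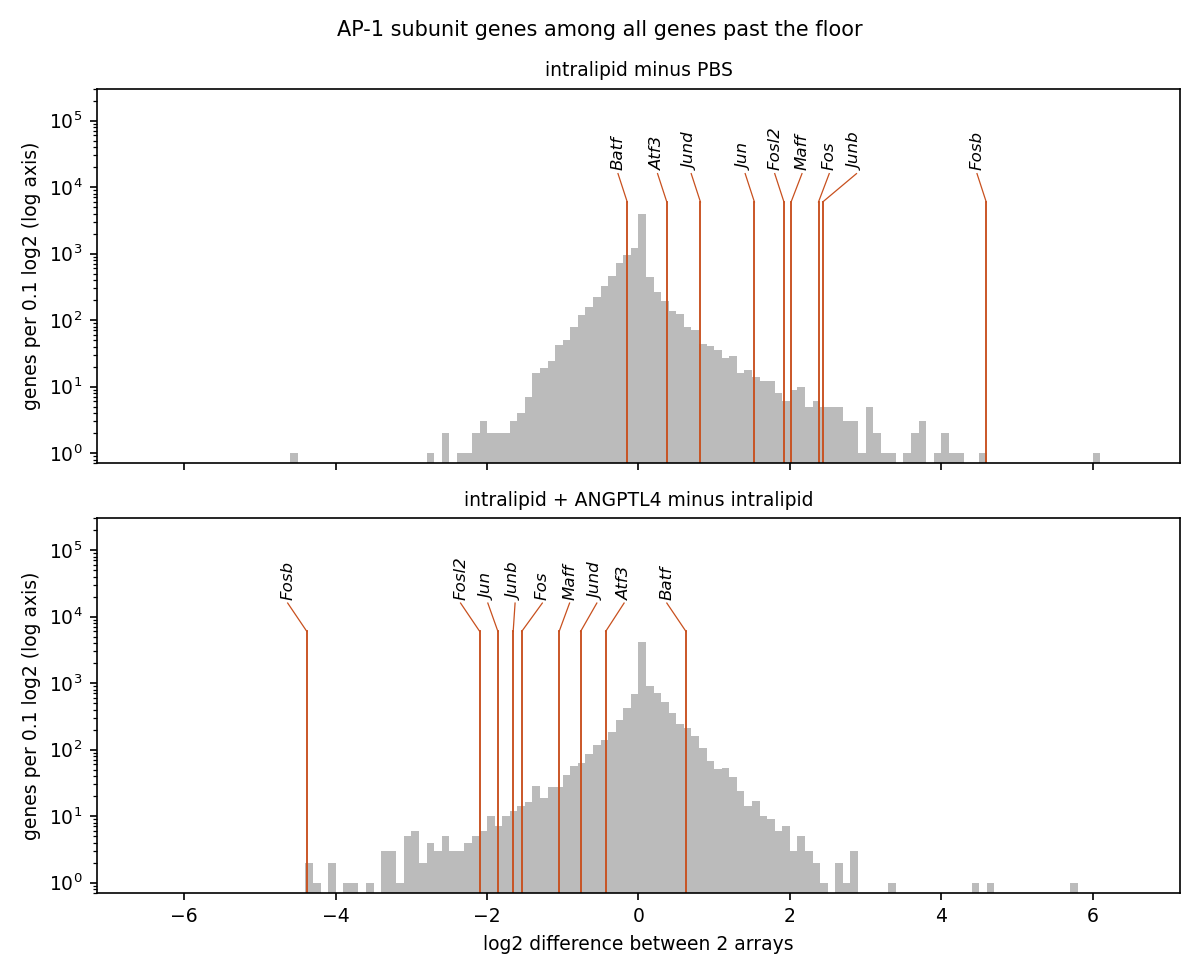
Histograms of the log2 difference (horizontal axis) over all genes past the floor, with genes per bin of 0.1 on a log axis, for intralipid minus PBS (top, 10018 genes) and intralipid plus ANGPTL4 minus intralipid (bottom, 10025 genes). Lines mark the 9 AP-1 genes past the floor: 6 lie right of 1 in the top panel and left of -1 in the bottom panel, Fosb at 4.59 and -4.38.

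The genes whose pattern over the 3 arrays was nearest to that of Fosb were Lsmem1, Inhba, Osm, Dusp10 and Cytip. Likeness was the Euclidean distance over the differences intralipid minus PBS and ANGPTL4 minus intralipid, on the log2 scale, and it ranged from 0.51 for Lsmem1 to 0.95 for Cytip. It rests on 3 arrays only, and Fosb and Lsmem1 lay below the floor on the PBS and ANGPTL4 arrays, so the order among the 5 depends on values near background. With values below the floor set to the floor, the same 5 genes were nearest, in the order Osm (a distance of 0.05), Inhba (0.21), Dusp10 (0.21), Cytip (0.43) and Lsmem1 (0.61).

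Of 10 measured genes that encode further partners or relatives of these subunits, 7 passed the floor. With intralipid, 2 were higher and 4 lower than with PBS, 1 of each by at least 2-fold, and the median log2 difference was -0.08. The shares of all genes tested past 2-fold were 2.52% higher and 1.33% lower. Mafk, a small Maf protein like Maff, had log2 values of 7.12, 8.56 and 7.20. It was 2.71-fold higher with intralipid than with PBS and 2.57-fold lower on the ANGPTL4 array than on the intralipid array. Mafg, another small Maf gene, had 8.15, 8.15 and 8.24, so the small Maf genes did not move as one. Maf, a large Maf factor that takes part in macrophage differentiation, went the other way, with 7.64, 6.12 and 6.86. It was 2.86-fold lower with intralipid than with PBS and with ANGPTL4 still 1.71-fold below PBS. Jdp2, a repressor that pairs with Jun proteins, had 5.89, 6.32 and 5.91. Atf2 (8.09, 7.92 and 8.23) and Atf7 (8.32, 8.24 and 8.32), which encode Jun partners activated by phosphorylation, differed by at most 0.31 between any 2 arrays. Mafa had 5.25, 5.17 and 5.17.

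Among 21 other bZIP factors past the floor, 6 were at least 2-fold higher with intralipid than with PBS and 0 lower. The shares of all genes tested were 2.52% and 1.33%, and the median difference of the 21 bZIP factors was 0.00. Nfil3, a repressor of the same structural class, had log2 values of 6.66, 9.22 and 6.27, and Ddit3, which encodes the stress factor CHOP, had 6.78, 9.21 and 6.55. Cebpb, a factor of inflammatory gene expression, had 8.57, 10.39 and 9.43, so that it stayed 1.82-fold above PBS with ANGPTL4. Atf1, a CREB relative, had 9.15, 10.37 and 9.37. With ANGPTL4, 4 of the 21 were at least 2-fold lower than on the intralipid array and 0 higher. The shares of all genes tested in that comparison were 2.30% and 2.53%.

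MAP kinases are the enzymes that activate AP-1 by phosphorylation. Of 17 MAP kinases and upstream kinases past the floor, 0 were at least 2-fold higher with intralipid than with PBS and 1 was lower. The median log2 difference was -0.07. The shares of all genes tested were 2.52% higher and 1.33% lower. The 1 lower gene was Mapk14, which encodes p38 alpha, with log2 values of 7.80, 6.57 and 8.14. It was 2.35-fold lower with intralipid and 2.97-fold higher on the ANGPTL4 array than on the intralipid array, so that the intralipid array was lowest where it was highest for Fos and Jun. Map3k4 (6.35, 5.58 and 6.40) and Map3k11 (8.02, 7.34 and 8.02) were also lowest with intralipid, in smaller steps, and Map3k2 (6.61, 7.35 and 6.74) was highest. With ANGPTL4, 11 of the 17 were higher and 4 lower than on the intralipid array, with a median log2 difference of 0.35. Genes in general leaned the same way: of all 10057 past the floor on any array, 4666 were higher and 2318 lower. Of the 17 kinases, 2 passed 2-fold, both higher, and 1 did after quantile normalization. The shares of all genes tested were 2.53% higher and 2.30% lower. These arrays measure transcripts and hold no measure of kinase activity. Of 13 regulators of immediate early transcription, 0 differed by 2-fold or more between the intralipid and PBS arrays. Since few genes of any kind passed 2-fold there, this count does not set the 13 apart. The largest differences were in Mef2c (-0.80), Mef2d (0.76), Stat3 (0.67) and Elk3 (-0.64). On the ANGPTL4 array, 1 of the 13, Elk3, was at least 2-fold higher than on the intralipid array (1.08), and 0 were lower. Among 8 proteins that bind AU-rich elements, which mark Fos and other short-lived transcripts for decay or protect them, Zfp36, which promotes decay, was the only one past 2-fold. Its log2 values were 8.40, 9.86 and 8.42, 2.74-fold higher with intralipid than with PBS. Zfp36l2 had 9.49, 10.19 and 9.51, Khsrp 7.25, 7.19 and 7.25, and Zfp36l1 6.70, 6.67 and 5.99.

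**Figure D4:**
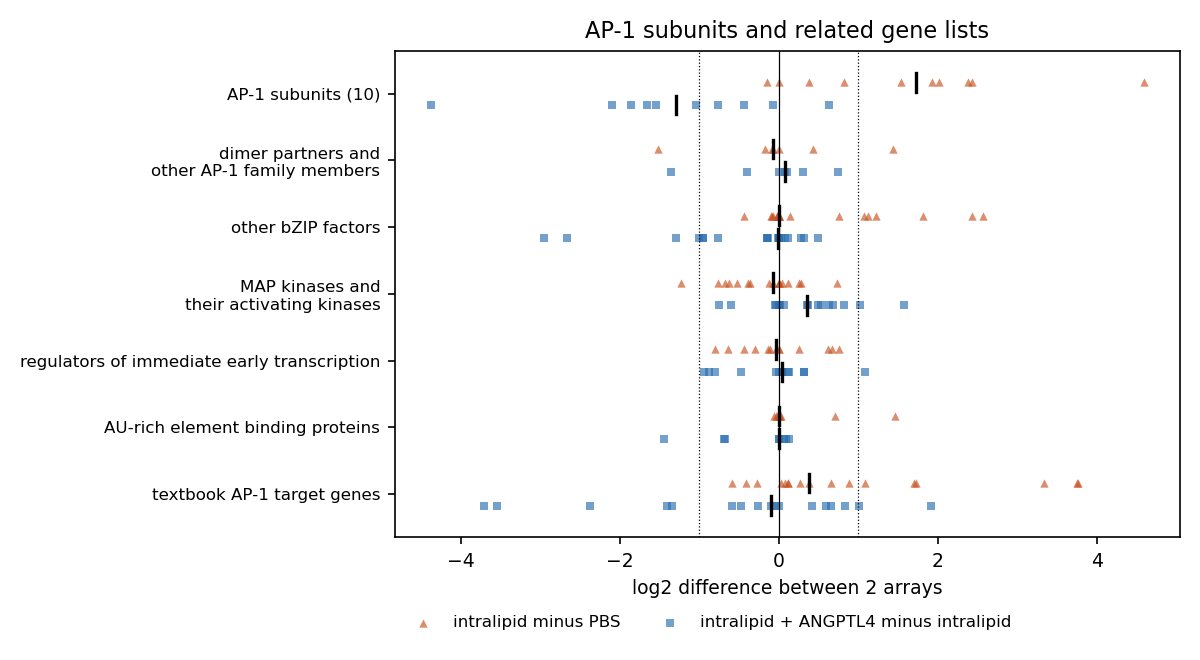
Log2 differences between 2 arrays (horizontal axis) for the 10 AP-1 genes and for the genes past the floor in 6 related lists: intralipid minus PBS (orange triangles) and intralipid plus ANGPTL4 minus intralipid (blue squares), with black bars at the medians and dotted lines at 2-fold. The AP-1 genes have medians of 1.73 and -1.29, and the medians of the other lists lie between -0.10 and 0.38.

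Textbook targets of AP-1 include genes of inflammation, growth and matrix turnover. Of 17 such targets past the floor on any array, 14 were higher with intralipid than with PBS and 3 were lower. The median log2 difference was 0.38, and 0.11 with values below the floor set to the floor. Il6 and Lif entered through the intralipid array alone. Il1b entered through the ANGPTL4 array alone, so it is among the 14 though below the floor on both arrays compared. The counts of 14 and 3 are thus a description only. Of all 10057 genes past the floor on any array, 2358 were higher and 4480 lower. At least 2-fold higher were 6 targets, against 2.52% of all genes tested, and 5 with values below the floor set to the floor. The list was chosen with earlier results of these data known. Ptgs2, the inducible cyclooxygenase, had log2 values of 5.72, 9.46 and 7.09, and was 2.60-fold above PBS with ANGPTL4. Il6, which encodes an inflammatory cytokine, had 2.48, 6.24 and 2.54, with only the intralipid array past the floor, so that its difference was 13.6-fold as measured and 2.37-fold against the floor. Vegfa, an angiogenic growth factor, had 8.09, 11.43 and 7.89, and Hbegf, a ligand of the EGF receptor, had 5.57, 7.29 and 5.89. With ANGPTL4, 5 of the 17 were lower than on the intralipid array by at least 2-fold and 2 were higher, with a median of -0.10. Of all genes tested, 2.30% were lower by that much and 2.53% higher. One of the 5, Lif, whose log2 values of 3.38, 5.08 and 3.74 lay past the floor with intralipid only, was 1.07-fold lower against the floor and is also 1 of the 6 higher with intralipid. With the floor at the 75th percentile, 3 were lower. Each of these genes has other regulators, and no binding was measured.

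**Figure D5:**
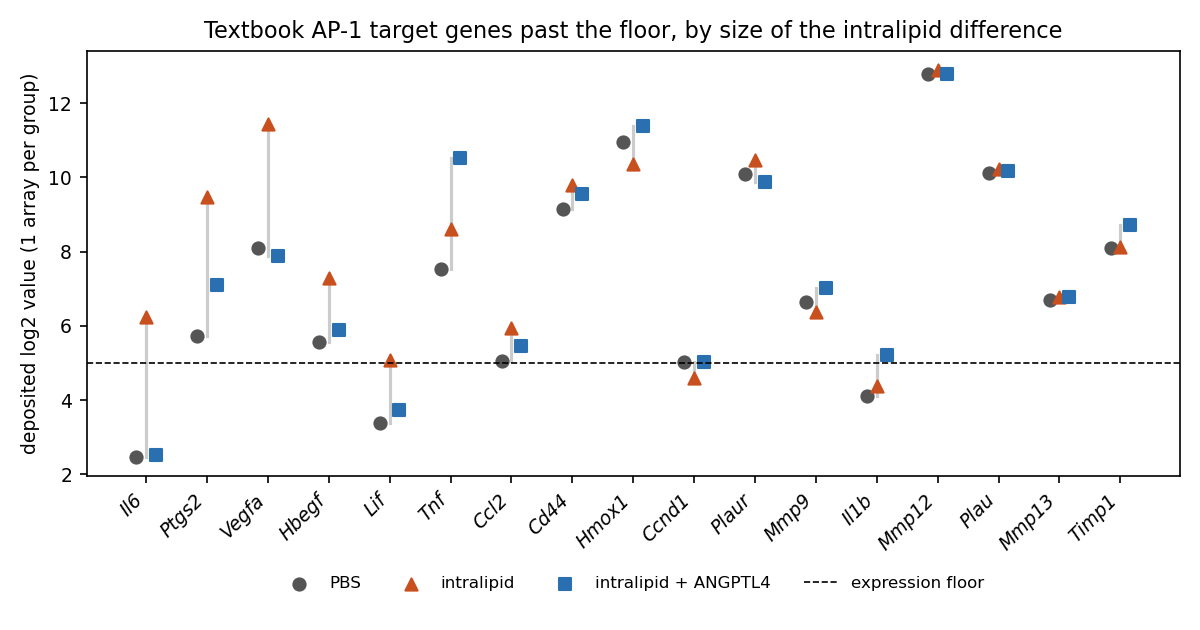
Deposited log2 values (vertical axis) of the 17 textbook AP-1 target genes past the floor on the PBS (circle), intralipid (triangle) and intralipid plus ANGPTL4 (square) arrays, 1 array per group, sorted by the size of the difference between intralipid and PBS; the dashed line is the mean expression floor. Il6, Ptgs2, Vegfa and Hbegf are highest with intralipid, while Tnf, Hmox1, Mmp9, Il1b and Timp1 are highest with ANGPTL4.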

How the data were processed

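RNA of 3 groups of cultured macrophages, pooled from 3 samples per group, was hybridised to 1 Affymetrix array each. Per the submitters' processing notes, the authors made the deposited log2 values with RMA, which corrects background, normalizes across arrays and summarises the probes of each set. The sources used here do not give its version, the chip definition or a genome build. Of 35556 probe sets, 21789 had 1 gene symbol in GEO's platform annotation. The one with the highest mean was taken per gene, which left 19938 genes, and values were used as deposited. For 41.4% of probe sets, the value was identical on all 3 arrays. Differences were computed in Python 3.11.15 with pandas 2.3.3, robust SDs in 20 bins of mean level, and alternative normalizations with limma 3.58.1. The counting was tested on simulated data. No test was planned or run, since each group has 1 array. The text names all 10 AP-1 genes, the dimer partners past the floor, up to 4 genes per related list by size of the intralipid difference, and the 5 genes nearest to Fosb. The members and lists were chosen with earlier results of these data known, and the motifs were chosen after the sequences were seen. The deleted gene, Angptl4, had a log2 value of 4.92 on each array, and whether its probe set lies in the deleted part is not known. Alternatives were other fold thresholds and floors, median centring, quantile and cyclic loess normalization, and the mean over probe sets. Setting values below the floor to the floor was added after seeing the data.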

Additional observations from a re-analysis of the deposited data

How the results depend on the processing

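No paired analysis was possible because each group has 1 array. The 10 AP-1 differences moved by at most 0.06 on the log2 scale under median centring, quantile normalization, cyclic loess and the mean over probe sets, and the counts of 6 higher with intralipid and 6 lower with ANGPTL4 were the same under these, without a floor and with a floor at the 75th percentile. At 1.5-fold these counts were 7 and 7, with 1 gene higher on the ANGPTL4 array than on the intralipid array and 3 higher than with PBS. At 3-fold they were 5 and 4. For all genes, the counts at 1.5-fold and 3-fold were 509 and 117 higher and 560 and 20 lower with intralipid than with PBS, 830 and 58 higher and 498 and 102 lower with ANGPTL4 than with intralipid, and 236 and 25 higher and 53 and 0 lower with ANGPTL4 than with PBS. Without a floor, the median of the AP-1 targets was 0.11 for intralipid against PBS and 0.070 for ANGPTL4 against PBS, and that of the MAP kinases 0.044 for ANGPTL4 against intralipid, in place of 0.38, 0.36 and 0.35, since more genes near background enter. With the floor at the 75th percentile, the regulators of immediate early transcription had medians of 0.44, -0.64 and -0.18 in the 3 comparisons, with fewer genes left. Setting values below the floor to the floor, an alternative chosen after seeing the data, changed no count of AP-1 genes past 2-fold, moved their median for ANGPTL4 against PBS from 0.13 to 0.023, and gave the AP-1 targets medians of 0.11 for intralipid and 0.21 for ANGPTL4, both against PBS. With 1 array per group, none of these settings bears on the spread between cultures.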

Other observations

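Some textbook AP-1 targets were highest on the array with ANGPTL4, unlike Fos, Fosb, Jun and Junb. These genes were named after their values were seen. Tnf, an inflammatory cytokine, had log2 values of 7.53, 8.61 and 10.52 on the PBS, intralipid and ANGPTL4 arrays. It was 3.77-fold higher on the ANGPTL4 array than on the intralipid array and 7.99-fold higher than with PBS. Il1b, another such cytokine, had 4.11, 4.38 and 5.21, with only the ANGPTL4 array past the floor. Hmox1, the heme oxygenase that is also a target of NRF2, had 10.95, 10.36 and 11.37, and Timp1, an inhibitor of matrix metalloproteinases, had 8.09, 8.12 and 8.72. Among the 10 AP-1 genes, Batf alone was highest on that array, near the floor and by less than 2-fold.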
